A study of Homo sapiens with 4 samples.

Results

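The ETS transcription factors described here are 10 genes, ERG, FLI1, ETS1, ETS2, SPI1, SPIB, ELF1, ETV6, ETV5 and GABPA, which were taken by their symbols from the 32673 genes of the expression table. RNA of TF1 cells was sequenced in 4 libraries, 2 from TF1-BA cells, which are sensitive to imatinib, and 2 from TF1-BAR cells, which are resistant to it. TF1 is a human erythroleukaemia line, and both derivatives carry the p210 form of BCR-ABL, which was brought in with a retrovirus, and were grown with GM-CSF, which the labels give as 2 ng/ml and the study's methods at another concentration. TF1-BAR cells were derived from TF1-BA cells by months of culture with imatinib, a BCR-ABL kinase inhibitor, and were grown with 2 µM of the drug, whereas TF1-BA cells were not, so that the resistant state and the presence of imatinib cannot be told apart in the comparison. Each group was 1 cell line, and the labels title the resistant libraries as a vector group while naming them TF1-BAR. The 4 libraries held 15465497 to 18042299 fragments. Expression is given as FPKM, fragments scaled to a length for each gene and to the mapped fragments of the library. Levels of different genes can then be set side by side, though they depend on the length taken for each gene.

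ETS factors share a DNA-binding domain, the ETS domain, that recognises sites around the core GGAA. They act with other factors and are also end points of kinase signalling through RAS and ERK. In blood, ERG and FLI1 maintain stem cells and megakaryocytes, SPI1 encodes PU.1, the master regulator of myeloid and B cell development, and ETV6 is a repressor needed for stem cells in the bone marrow. ERG and ETS2 are neighbours on chromosome 21, and FLI1 and ETS1 are neighbours on chromosome 11.

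All 4 libraries carried RNA of the 6 myeloid progenitor and erythroid markers examined. Of these 3 passed the test used below and were higher in TF1-BAR cells, as ERG was, while 16.3% of all genes tested passed higher. CD34, the stem and progenitor cell antigen, rose from 25.8 and 24.7 to 53.9 and 61.2 FPKM (log2 fold change 1.17, adjusted p = 0.00409). KIT, the stem cell factor receptor, rose by 1.12 (adjusted p = 0.00409) and CD33, a myeloid antigen, by 0.87 (adjusted p = 0.00555) on the log2 scale. GATA1 and EPOR, the erythroid genes, and IL3RA did not pass, at 65.9 to 75.4, 20.6 to 28.5 and 13.8 to 16.8 FPKM. The part of these markers in the results below was not tested. The lymphoid, fibroblast and epithelial markers CD3E, CD2, COL1A2 and EPCAM had at most 4 fragments in any library, and COL1A1 had 33 to 76. CD79A, a B cell marker, had 50 and 51 fragments in TF1-BA cells and 84 and 76 in TF1-BAR cells and passed higher (log2 fold change 0.61, adjusted p = 0.026). In RNA of whole cultures, fewer cells that express a gene and less RNA per cell cannot be told apart.

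The study targeted ERG with 3 short hairpin RNAs in other experiments, and their target sequences are shown because they place those experiments in the gene and because one of them lies in the domain that ERG shares with its relatives. All 3 were found in the MANE Select transcript of ERG (GRCh38, minus strand, 10 exons). The target of sh-ERG#1 lies in the part of exon 10 that is not translated, at chr21:38383402-38383422, that of sh-ERG#2 crosses the junction of exons 4 and 5 in coding sequence, between chr21:38402621 and 38403509, and that of sh-ERG#3 lies in the coding part of exon 10 at chr21:38383716-38383736.
sh-ERG#1: atctgggcacttactactaaa
sh-ERG#2: gagactcctcttccacatttg
sh-ERG#3: ccgttactactatgacaagaa
The sh-ERG#1 and sh-ERG#3 targets are present in 10 of the 15 annotated ERG transcripts and the sh-ERG#2 target in 13.

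The sh-ERG#3 target lies in the stretch that encodes the DNA-contacting helix of the ETS domain, the most conserved part of the family. Of the best matches to it in the MANE Select transcripts of the other ETS genes, those with at most 5 mismatches are shown 5′ to 3′ with the bases that differ from ERG in capitals.
FLI1: ccgttaTtactatgaTaaAaa
FEV: GcgCtactactaCgacaagaa
ELK1: GcgGtactactatgacaagaa
ELK3: GcgAtactaTtatgacaagaa
ELK4: cAgAtactaTtatgTAaagaa
ETS2: AcgCtactaTtaCgacaagaa
ETS1: AcgCtactaTtaCgacaaAaa
ETV5: ccgCtaTtactatgaAaagGG
FLI1 (chr11:128810646-128810666, exon 9 of 9) and FEV (chr2:218982049-218982069, exon 3 of 3) each differed from ERG at 3 of 21 bases, and ELK1 (chrX:47639337-47641250), ELK3 (chr12:96223755-96246941) and ELK4 (chr1:205620837-205623694) differed at 2, 3 and 5 in stretches split by an intron. ETS2 (chr21:38822742-38822762, exon 10 of 10) differed at 4, and ETS1 (chr11:128462488-128462508, exon 10 of 10) and ETV5 (chr3:186052043-186052063, exon 12 of 13) at 5. All of these stretches are coding. The best matches in SPI1, SPIB, ELF1, ETV6 and GABPA had at least 8 mismatches. Those in SPI1, SPIB, ELF1 and ETV6 were not in coding sequence, and that in GABPA lay in exon 3 of 10. They are therefore not read as the helix of these genes. Over whole transcripts, the longest stretch identical between any 2 of the 10 genes and FEV was 19 bases, between ETS1 and ETS2, and ERG and FLI1 shared at most 17. ETS1, ETV6 and SPIB share identical stretches with 120, 25 and 226 other genes. GABPA shares such a stretch with 3 genes, among them its pseudogene GABPAP, and ETS2 and ETV5 with 1 gene each. The search was sure to find stretches of 79 bases or more and could also count shorter ones. Reads of these members could thus be split between genes.

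ERG was the member with the largest difference between the cell lines. Its level was 4.18 and 4.50 FPKM in TF1-BA cells and 15.8 and 19.5 in TF1-BAR cells, from 572, 528, 1893 and 2380 fragments. Both TF1-BAR libraries lay far above both TF1-BA libraries. The means were 4.34 ± 0.227 and 17.7 ± 2.61 FPKM (SD, n = 2 each), a ratio of 4.07, and the log2 fold change, taken on log2(FPKM + 0.5) here and throughout, was 1.90 with a standard error of 0.12 (limma, adjusted p = 0.0037). ERG lies on chr21:38380027-38661780 on the minus strand. Differentially expressed genes, those that passed at an adjusted p under 0.05 and changed by 1 or more on the log2 scale, made up 3.05% of the 15519 genes tested in the higher direction and 1.69% in the lower, and ERG was the only one of the 9 members tested to be so called.

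FLI1, the closest relative of ERG among the members, also rose. Its level was 23.3 and 22.9 FPKM in TF1-BA cells and 37.7 and 42.4 in TF1-BAR cells, which did not overlap. The log2 fold change was 0.78 with a standard error of 0.0798 (adjusted p = 0.00696), and the SD of the 2 libraries was 0.27 FPKM in TF1-BA cells and 3.34 in TF1-BAR cells, whose means had a ratio of 1.73. FLI1 lies on chr11:128686535-128813267 on the plus strand. The ratio of ERG to FLI1 FPKM was 0.179 and 0.196 in TF1-BA cells and 0.42 and 0.46 in TF1-BAR cells. With 2 libraries in each group an exact permutation test of such a ratio cannot give a p below 0.333, so the ratios are given without a test.

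ETS1, the founding member of the family and a lymphoid and endothelial regulator, is transcribed from the minus strand of chr11:128458761-128587558 and is separated from FLI1 by 98976 bases. It was at 27.0 and 28.1 FPKM in TF1-BA cells and at 47.4 and 51.6 in TF1-BAR cells. Again the 2 groups lay apart. The log2 fold change was 0.83 with a standard error of 0.0719 (adjusted p = 0.00561), and the means were 27.6 ± 0.813 and 49.5 ± 3.0 FPKM.

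ETS2, a factor activated by phosphorylation through ERK, showed no such difference. Its level was 59.8 and 56.3 FPKM in TF1-BA cells and 43.7 and 57.5 in TF1-BAR cells, so that one TF1-BAR library lay within the range of the TF1-BA libraries and the other below it. The log2 fold change was −0.21 with a standard error of 0.139 (adjusted p = 0.308), and it moved to −0.41 when TF1-BAR replicate 2 was left out and to −0.01 when TF1-BAR replicate 1 was. ETS2 lies on the plus strand of chr21:38805307-38824955, 143526 bases from ERG. The ratio of ETS1 to ETS2 FPKM was 0.451 and 0.5 in TF1-BA cells and 1.09 and 0.898 in TF1-BAR cells.

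SPI1 was expressed in all libraries, with 30.2 and 32.4 FPKM in TF1-BA cells and 42.3 and 50.8 in TF1-BAR cells, without overlap. The log2 fold change was 0.56 with a standard error of 0.105 (adjusted p = 0.0226), at means of 31.3 ± 1.55 and 46.6 ± 5.99 FPKM for this gene on chr11:47354860-47378576 (minus strand). SPIB, its B cell relative on chr19:50418938-50431313, was covered by 4, 3, 3 and 3 fragments (0.0436 to 0.0518 FPKM). It was too low to be tested, and no difference was detectable at this depth.

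ETV6 (chr12:11649854-11895402, plus strand) was at 18.5 and 18.4 FPKM in TF1-BA cells and at 22.0 and 23.1 in TF1-BAR cells, and it rose with a log2 fold change of 0.28 (SE 0.0657, adjusted p = 0.0356). ELF1 (chr13:40932028-41061440, minus strand), a factor that binds promoters of T cell and stem cell genes, was at 21.0 and 21.8 FPKM against 23.3 and 25.8, with a log2 fold change of 0.19 (SE 0.0775, adjusted p = 0.129), which was 0.12 without TF1-BAR replicate 2. ETV5 (chr3:186046308-186110318, minus strand), a PEA3 factor induced by ERK signalling, had nearly the same level in all libraries, 26.8 and 26.7 FPKM against 28.1 and 27.9, and a log2 fold change of 0.06 (SE 0.0595, adjusted p = 0.451). In all 3 genes both TF1-BAR libraries lay above both TF1-BA libraries, though ELF1 and ETV5 did not pass the test.

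GABPA, the DNA-binding subunit of GABP, a regulator of mitochondrial and ribosomal genes, was the only one of the 9 members tested whose TF1-BAR values both lay below its TF1-BA values. Its level was 9.87 and 8.47 FPKM in TF1-BA cells and 7.44 and 5.46 in TF1-BAR cells (967, 711, 637 and 476 fragments). The log2 fold change was −0.49 with a standard error of 0.164 (adjusted p = 0.0871). It passed the test with limma voom on the recovered fragments (adjusted p = 0.00899) and without TF1-BAR replicate 1 (log2 fold change −0.70, adjusted p = 0.0468). It did not pass without TF1-BAR replicate 2 (−0.28, adjusted p = 0.216), TF1-BA replicate 1 (−0.38, adjusted p = 0.332) or TF1-BA replicate 2. GABPA lies on chr21:25734570-25772460 (plus strand) and overlaps ATP5J on the opposite strand, which had 14.6 to 19.6 FPKM. The library kit does not mark the strand, so that reads where such genes overlap cannot be told apart. The same holds for ELF1 with WBP4 (7.79 to 9.41 FPKM), for ETV5 with its antisense RNA ETV5-AS1 (0.778 to 1.29 FPKM) and for FLI1 with its antisense RNA SENCR.

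**Figure D1:**
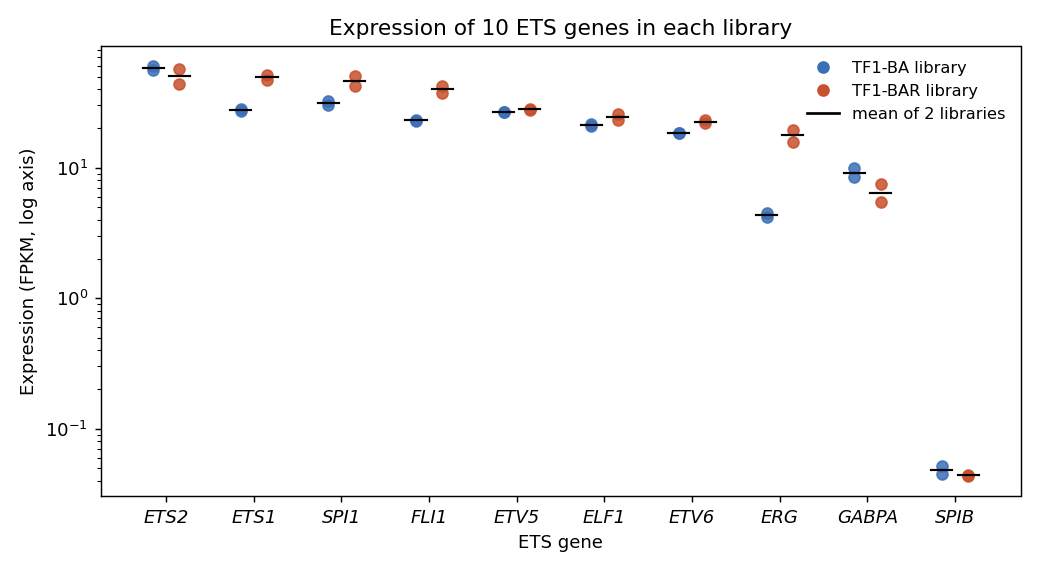
Level of the 10 ETS genes in each library on a logarithmic FPKM axis, with 1 point for each of the 2 TF1-BA and 2 TF1-BAR libraries. ERG moves from 4.34 to 17.7 FPKM on average, SPIB stays at the detection limit in all 4 libraries, and ETS2 is the only one of the 9 genes tested whose groups overlap.

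5 of the 9 members tested, ERG, FLI1, ETS1, SPI1 and ETV6, had an adjusted p under 0.05 and were higher in TF1-BAR cells, while 16.3% of all genes tested passed in that direction. By limma, 0 members passed in the lower direction, where 10.5% of all genes did, with 1 member lower at an unadjusted p under 0.05 and 1 lower by limma voom, in both cases GABPA. Both TF1-BAR libraries lay above both TF1-BA libraries in 7 of the 9, against 40.9% of all genes, and below them in 1 of the 9, against 28.4%. The median log2 fold change of the 9 was 0.28, and that of all genes was 0.07. The members were chosen with earlier results of these data known, so their share is a description.

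Leaving out 1 library changed several of these calls, and none of the directions. ERG had an adjusted p of 0.0527 without TF1-BA replicate 2, at a log2 fold change of 1.95, and passed without each of the other libraries. FLI1 and ETS1 lost the call without either TF1-BA library, with an adjusted p of 0.0686 and 0.0713 for FLI1 and of 0.0615 and 0.0589 for ETS1, without replicates 1 and 2 in that order. SPI1 and ETV6 lost it without TF1-BA replicate 1 (0.139 and 0.20), TF1-BA replicate 2 (0.11 and 0.208) and TF1-BAR replicate 2 (0.0604 and 0.0884).

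The order of the levels changed with these differences. In TF1-BA cells it ran from ETS2 at 58.0 FPKM through SPI1, ETS1, ETV5, FLI1, ELF1 and ETV6 to GABPA at 9.17, ERG at 4.34 and SPIB at 0.0485, and no neighbours in this order overlapped in their 2 libraries. In TF1-BAR cells ETS2, ETS1 and SPI1 led at 50.6, 49.5 and 46.6 FPKM with FLI1 after them, each overlapping with the next, followed by ETV5, ELF1, ETV6, ERG at 17.7, GABPA at 6.45 and SPIB, which lay apart. ERG thus stood below GABPA in TF1-BA cells and above it in TF1-BAR cells. The summed FPKM of the 28 human ETS genes was 332 and 330 in TF1-BA cells and 380 and 433 in TF1-BAR cells. ERG made up 1.26% and 1.36% of that sum in TF1-BA cells and 4.17% and 4.51% in TF1-BAR cells.

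FEV, the third gene of the ERG and FLI1 subfamily and a factor of serotonergic neurons, also rose, from a lower level than ERG. It was at 2.38 and 3.16 FPKM in TF1-BA cells and at 8.61 and 11.8 in TF1-BAR cells, from 88, 100, 278 and 390 fragments. The groups lay apart, and the log2 fold change was 1.71 with a standard error of 0.193 (adjusted p = 0.00815). Of the 18 other ETS genes 11 were tested, and 1 passed higher and 1 lower, against 16.3% and 10.5% of all genes tested. The median log2 fold change of the 11 was −0.08. The gene that fell was ELK1, a partner of SRF at immediate early genes, from 21.9 and 21.9 FPKM to 17.8 and 18.1 (log2 fold change −0.28, adjusted p = 0.033), and it did not pass with FPKM rescaled to TPM (adjusted p = 0.0638), without the trend in the variance model (0.0726), with no filter on low values (0.0548), or without any one of the libraries (0.0605 to 0.203). Its relatives ELK3 and ELK4 had values of −0.36 and −0.34, the repressor ERF of 0.35 and ELF4 of 0.34, and none of these 4 passed (adjusted p = 0.0646, 0.0696, 0.0766 and 0.132). Neither FEV nor ELK1 passed when either TF1-BA library was left out (0 of 11 genes, with 1 at an unadjusted p under 0.05 in each case), 4 genes passed when TF1-BAR replicate 1 was left out and 1 when TF1-BAR replicate 2 was, and 7 of the 11 passed with limma voom.

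**Figure D2:**
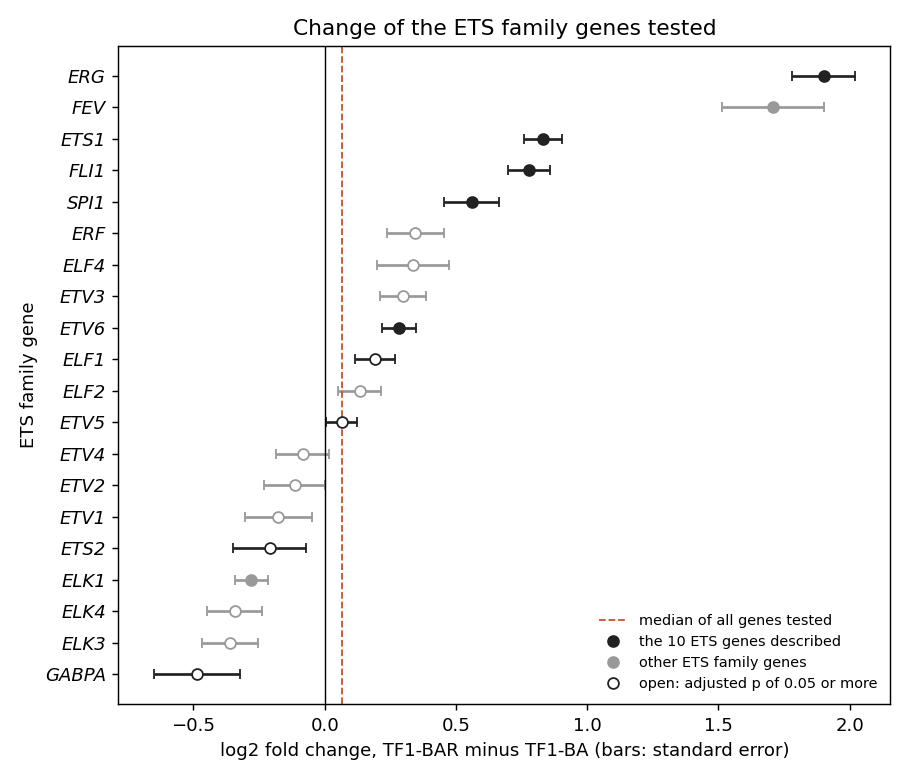
Log2 fold change of TF1-BAR over TF1-BA cells on the log2(FPKM + 0.5) scale, with the standard error as bars, for the 9 tested ETS genes described here (black) and the 11 other tested ETS genes (grey), where filled points have an adjusted p under 0.05, open points do not, and the dashed line is the median of all genes tested. ERG stands at 1.90 and FEV at 1.71, ETS1, FLI1 and SPI1 lie between 0.56 and 0.83, and GABPA is lowest at −0.49.

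The transcription factors that bind with ERG and FLI1 in blood stem cells were next examined. TAL1, LYL1, GATA2 and RUNX1 were higher in TF1-BAR cells and passed the test, 4 of 5, where 16.3% of all genes tested passed higher. The median log2 fold change of the 5 was 0.40, and that of all genes tested was 0.07. TAL1 rose from 22.0 and 21.7 to 34.4 and 40.6 FPKM (log2 fold change 0.76, adjusted p = 0.00976). RUNX1 rose from 7.16 and 7.03 to 10.2 and 10.0 FPKM (0.48, adjusted p = 0.0129). LYL1, a relative of TAL1, had a log2 fold change of 0.40 (adjusted p = 0.0153) and GATA2 of 0.25 (adjusted p = 0.0339), at 195 to 242 FPKM the most abundant of the 5. LMO2, the bridging protein of the complex, overlapped between the groups (0.21, adjusted p = 0.233). The number that passed was 0 of 5 without either TF1-BA library, with 4 and 3 at an unadjusted p under 0.05, and 1 without TF1-BAR replicate 2.

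Genes of megakaryocytes and platelets that FLI1 is known to activate were higher in 3 of the 4 cases tested here, and 1 was differentially expressed. Of all genes tested, 16.3% passed higher and 3.05% were differentially expressed in that direction. GP1BA, a subunit of the platelet receptor for von Willebrand factor, rose from 8.27 and 8.95 to 20.3 and 22.6 FPKM, a ratio of 2.49 and a log2 fold change of 1.27 (SE 0.0877, adjusted p = 0.00409). GP9 and ITGA2B rose by less, with log2 fold changes of 0.52 (adjusted p = 0.0408) and 0.43 (adjusted p = 0.0204). GP6, the platelet collagen receptor, did not pass, at −0.21 (adjusted p = 0.208), and GP1BB and PF4 were not analysed here. The median of the 4 was 0.47. By limma 0 of the 4 passed without either TF1-BA library, with 3 at an unadjusted p under 0.05 in each case, and 1 passed without TF1-BAR replicate 2.

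The list of myeloid genes that PU.1 is known to activate held 6 genes that were tested. Of these 3 passed, all higher, against 16.3% of all genes tested, and the median log2 fold change of the 6 was 0.58. One of the 3, CSF1R, cleared the filter on low values only through the TF1-BAR libraries, where it is high, so it had to differ, and the count and the median are a description. CSF1R, the macrophage growth factor receptor, was low in all libraries, with 20 and 26 fragments in TF1-BA cells and 109 and 109 in TF1-BAR cells (0.271 ± 0.0786 and 1.33 ± 0.0185 FPKM, log2 fold change 1.25, adjusted p = 0.0124), and its call is not read as support. ITGAM, the integrin CD11b, rose from 29.3 and 30.4 to 48.4 and 60.2 FPKM (0.85, adjusted p = 0.0114), and TLR4 rose from 1.47 and 1.67 to 2.68 and 2.68 FPKM (0.62, adjusted p = 0.0207). CSF3R and CYBB had log2 fold changes of 0.54 and 0.53 without passing (adjusted p = 0.0727 and 0.0798). FCGR1A was below the filter and IRF8 was not analysed here. By limma 0 of 6 passed without either TF1-BA library, with 3 and 4 at an unadjusted p under 0.05, 1 passed without TF1-BAR replicate 2, and 5 of 6 passed with limma voom.

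ETV5 and its relatives lie downstream of RAS and ERK, as do the feedback inhibitors of that pathway. Of these inhibitors 3 of 7 passed, all higher (median log2 fold change 0.28), while 16.3% of all genes tested passed higher. DUSP4, a phosphatase that inactivates ERK in the nucleus, rose from 0.5423 and 0.5881 to 1.967 and 2.795 FPKM (1.42, adjusted p = 0.0106) and was differentially expressed. SPRY1 and SPRED2, inhibitors upstream of RAF, had log2 fold changes of 0.56 (adjusted p = 0.0147) and 0.29 (adjusted p = 0.0423). DUSP6, at 0.28 (adjusted p = 0.0879), and SPRY4, at −0.34 (adjusted p = 0.123), did not pass, and SPRY2 and SPRED1 overlapped between the groups. The number that passed was 0 without either TF1-BA library, with 2 at an unadjusted p under 0.05 in each case, 0 without TF1-BAR replicate 2, with 4 higher and 1 lower, and 5 with limma voom, of which 4 were higher and 1 lower.

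The partners of GABPA and mitochondrial genes bound by GABP gave 2 of 7 that passed lower, against 10.5% of all genes tested. By limma 0 passed higher, against 16.3%, with 2 higher at an unadjusted p under 0.05 and 1 higher by limma voom. TFAM, which packages mitochondrial DNA, fell from 8.16 and 7.62 to 4.71 and 3.22 FPKM (log2 fold change −0.93, adjusted p = 0.0225), and TFB1M, a mitochondrial ribosomal RNA methyltransferase, fell from 5.96 and 5.77 to 4.29 and 3.57 FPKM (−0.53, adjusted p = 0.028). TFAM is on chromosome 10, where the median log2 fold change of all 593 genes tested was −0.35, and the part of that shift in its value was not tested. GABPB2, with 131, 102, 54 and 56 fragments, had a log2 fold change of −0.52 (adjusted p = 0.102). It cleared the filter on low values only through the TF1-BA libraries, where it is high (mean 0.754 FPKM, against 0.376 in TF1-BAR cells). Its fold is a description. GABPB1, the main partner subunit, had a log2 fold change of 0.23 (adjusted p = 0.114) and TFB2M of 0.29 (adjusted p = 0.0982). The median of the 7 was −0.20, which includes GABPB2 and is a description. Neither TFAM nor TFB1M passed without TF1-BA replicate 1, TF1-BA replicate 2 or TF1-BAR replicate 2, where 0 of 7 passed and 3, 2 and 3 of the list had an unadjusted p under 0.05.

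**Figure D3:**
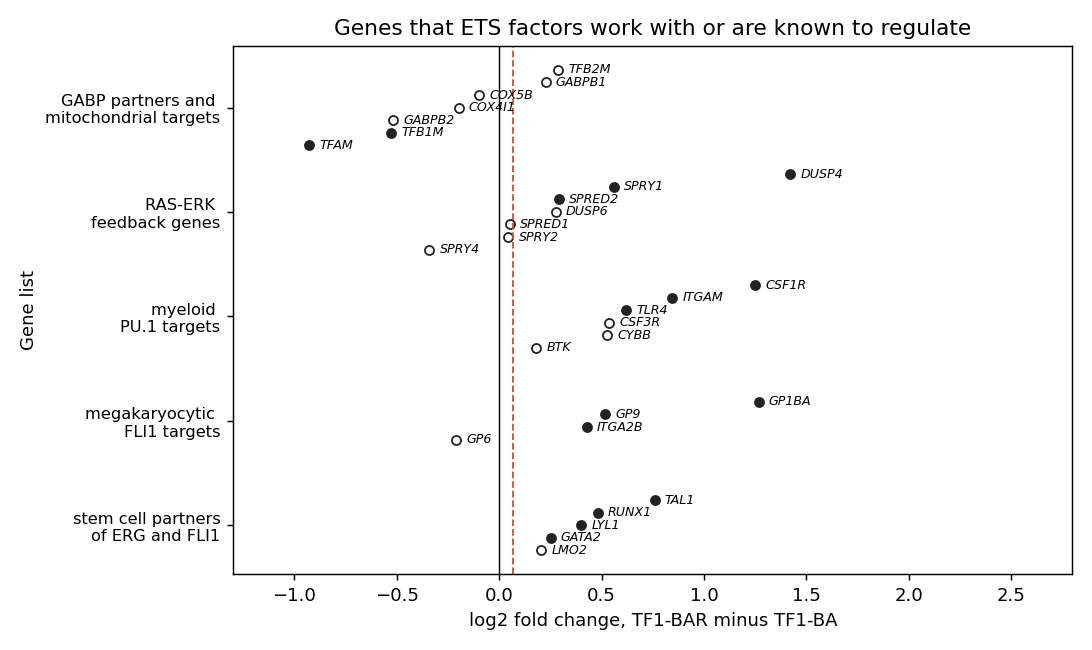
Log2 fold change of TF1-BAR over TF1-BA cells for each tested gene of the 5 lists of partners and known targets, where filled points have an adjusted p under 0.05, open points do not, and the dashed line is the median of all genes tested (0.07). DUSP4 stands highest at 1.42 among the RAS-ERK feedback genes and TFAM lowest at −0.93 among the GABP genes. CSF1R was tested only through its TF1-BAR level and GABPB2 only through its TF1-BA level.

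Genes beside ERG were mixed in direction. Within 1 Mb of ERG on chromosome 21, measured between the nearest edges of the genes, 15 genes were tested. Of these 4 passed higher, 2 passed lower and 9 did not pass, while 16.3% of all genes tested passed higher and 10.5% lower. The median log2 fold change of the 15 was −0.03, with 0.09 for the 191 genes of the chromosome. The 4 that were higher were the pseudogene PCBP2P1 (1.16, adjusted p = 0.0115) and the noncoding RNAs AF064858.1 (1.13, adjusted p = 0.0328), AF064858.3 (1.02, adjusted p = 0.0282) and BRWD1-AS1, which cleared the filter only through the TF1-BAR libraries and is given without a fold. All were low, with 7 to 54 fragments in the TF1-BA libraries for the first 3. BRWD1-AS1 had 1 and 3 fragments in TF1-BA cells, within the floor of 3, and 8 and 11 in TF1-BAR cells, so its place among the 4 is not read as support. The protein-coding genes that passed, WRB and PSMG1, fell, with log2 fold changes of −0.57 (adjusted p = 0.0494) and −0.26 (adjusted p = 0.0447). On chromosome 11, FLI1 had 3 tested genes within the same distance, of which 2 passed higher and AP001000.1 did not pass (0.07, adjusted p = 0.78). The 2 were ETS1, given above, and SENCR, the antisense RNA within FLI1, at 1.84 and 1.69 FPKM in TF1-BA cells and 2.59 and 3.50 in TF1-BAR cells (0.64, adjusted p = 0.0411).

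**Figure D4:**
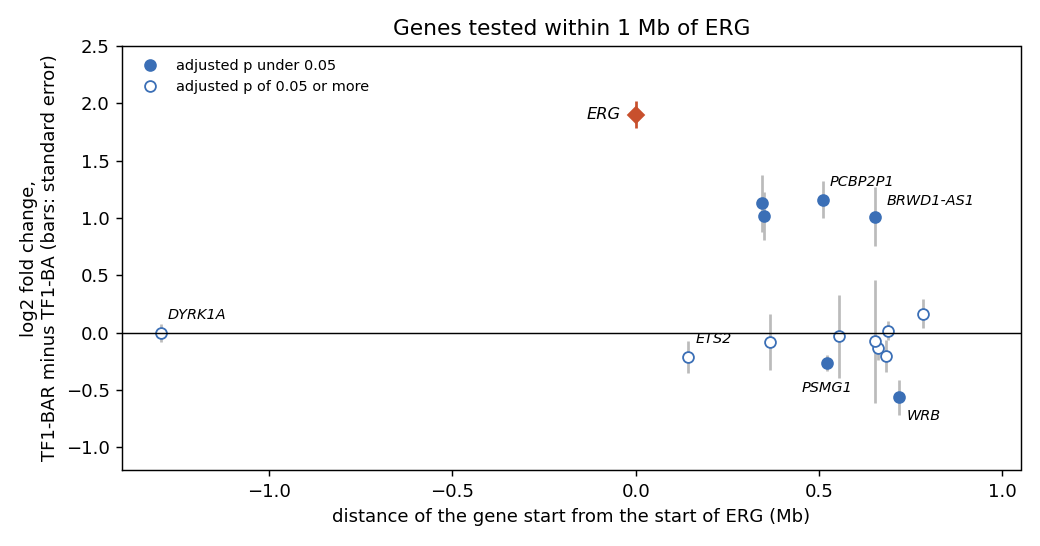
Log2 fold change of TF1-BAR over TF1-BA cells, with standard errors, of the genes tested whose nearest edge lies within 1 Mb of ERG, against the distance of their start from the start of ERG in Mb, where filled points have an adjusted p under 0.05. ERG at 1.90 stands above all of them, ETS2, the nearest gene tested, is at −0.21, and the value of BRWD1-AS1 rests on 1 and 3 fragments in TF1-BA cells.

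The 5 genes with a profile most like that of ERG over the 4 libraries, by the distance between log2 values centred on each gene's mean, were PLA2G6, FREM1, KDR, PLK2 and LINC01029, at distances of 0.102 to 0.141 among 7297 genes with a mean of at least 5 FPKM. They were chosen by this likeness, so their values are a description. KDR, the VEGF receptor of endothelial cells, was at 9.90 and 9.70 FPKM in TF1-BA cells and 35.5 and 45.5 in TF1-BAR cells. PLA2G6, a calcium-independent phospholipase, was at 5.51 and 6.09 against 19.5 and 23.7 FPKM.

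A promoter of ERG is shown because GGAA, the core of the ETS site, can be counted in it. The 250 bases before the start of the MANE Select transcript (RefSeq, GRCh38.p14, chr21:38498478-38498727, minus strand) are given 5′ to 3′ with the core, read as GGAA or as TTCC on the other strand, in capitals.
ERG promoter: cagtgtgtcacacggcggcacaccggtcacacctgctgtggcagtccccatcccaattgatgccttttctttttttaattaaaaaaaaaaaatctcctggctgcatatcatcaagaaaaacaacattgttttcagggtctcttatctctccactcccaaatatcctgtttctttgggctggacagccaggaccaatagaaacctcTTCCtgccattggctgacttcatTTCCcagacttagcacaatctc
The windows before other ERG starts hold 1, 4 and 1 matches, and which start these cells use was not tested. The window shown holds 2 matches. At least 1 was found in 92.7% of 35116 promoter windows of the same length, with a median of 3, so that its presence is common to most promoters. The longer site CCGGAAGT, which contains the core, was found on either strand in 3.42% of the windows. Among the 12 windows of the 6 members matched in the RefSeq table (ERG, ETS2, ETV6, ELF1, SPIB and GABPA) it was found in 1, that of GABPA. The other members, FLI1, ETS1, SPI1 and ETV5, are named only.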

How the data were processed

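Total RNA of 2 TF1-BA and 2 TF1-BAR samples was made into libraries with a NEBNext Ultra kit and sequenced. Per the labels, the authors mapped reads to GRCh38 with TopHat2 2.0.13 and used Cufflinks and Cuffdiff 2.2.0; they deposited FPKM for 32673 genes and each library, without log transformation. The annotation release is not given in the sources used here. Samples were grouped by the name of the cell line in the labels. Nothing states that replicates were separate cultures, so p-values measure the spread between these samples, which may be technical.

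FPKM were compared as log2(FPKM + 0.5) with limma 3.58.1 in R 4.3.3 (eBayes with trend, two-sided) over the 15519 genes whose FPKM averaged 0.5 or more, with Benjamini-Hochberg adjustment over all of them. This replaced the count test of the study's methods, since the deposited values are not counts; their thresholds were kept. A gene passed the test at an adjusted p under 0.05. The script was tested on simulated data.

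Fragments were recovered as whole multiples of the value of 1 fragment: 99.9% of one-exon genes in each library were whole within 0.01 at their GENCODE 44 length, and other genes were assigned a fitted length where needed. Listed genes held 98.4% of each library. Fragments cover counting error only, and 3 fragments were taken as the floor. 26 symbols turned into dates were restored from gene identifiers.

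The members and lists were chosen with earlier results of these data known. Some genes of the lists are not reported here and were left out of the counts. Named were all members, in each list up to 5 tested genes of largest absolute log2 fold change, up to 5 neighbours of ERG and FLI1 within 1 Mb, and the 5 genes nearest to ERG in profile; ELK1, PSMG1, ETS1 as a neighbour, fragments of single genes, SPRY2, SPRED1, and the list genes below the filter or not analysed were named besides. Hairpin targets came from the study's supplementary sequences and were matched to GENCODE 44 transcripts and the GRCh38 genome. Alternatives were other pseudocounts (1 and 0.1 FPKM), a mean FPKM of at least 1, no filter, TPM, quantile normalization, eBayes without trend, a replicate block and leaving out each library; limma voom on recovered fragments was added after seeing the data.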

Additional observations from a re-analysis of the deposited data

How the results depend on the processing

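The directions of all 9 members tested were kept under all 13 alternatives. ERG had log2 fold changes of 1.80 to 2.05 (adjusted p from 2.14e-07 to 0.0345) when all libraries were used and of 1.76 to 2.05 when 1 was left out, where the adjusted p reached 0.0527 without TF1-BA replicate 2 (log2 fold change 1.95). Without 1 library, 0 to 6 members passed and 0 to 1 were differentially expressed, against 5 and 1 (0 without TF1-BA replicate 2, where 4 had an unadjusted p under 0.05), and over all genes 42 to 3176 passed and 42 to 783 were differentially expressed, against 4167 and 737. The counts were 144 without TF1-BA replicate 1, 42 without TF1-BA replicate 2 and 1028 without TF1-BAR replicate 2. A lone library was then assumed to vary like the other group. For the lists the counts without 1 library were 0 to 4 of other ETS genes, 0 to 3 of stem cell partners, 0 to 3 of megakaryocytic genes, 0 to 2 of PU.1 targets, 0 to 2 of RAS-ERK feedback genes and 0 to 2 of GABP genes.

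With no filter on low values, 1446 genes and 3 members passed, with 1 other ETS gene, 1 megakaryocytic gene, 1 PU.1 target, 0 RAS-ERK feedback genes (4 at an unadjusted p under 0.05) and 0 GABP genes (5 at an unadjusted p under 0.05, of which 1 was higher and 4 lower). Without the trend in eBayes, 1 other ETS gene and 1 megakaryocytic gene passed. Limma voom on recovered fragments gave 1155 differentially expressed genes, 7 other ETS genes, 5 PU.1 targets, 5 RAS-ERK feedback genes and 4 GABP genes, and a pseudocount of 1 FPKM gave 487 differentially expressed genes. Of the differentially expressed genes 64.3% were higher in TF1-BAR cells, against 51.5% with quantile normalization and 70.7% with TPM. The cause of these shifts was not tested. SPI1 and ETV6 lost the call with no filter (adjusted p = 0.079 and 0.0645) and ETV6 without the trend (0.0765).

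The replicate numbers did not pair the samples: after subtraction of each group's mean, libraries with the same number correlated at 0.0646 over 15519 genes. With the replicate block, 3969 genes passed and 755 were differentially expressed, ERG had the same log2 fold change, 6 members passed, and GABPA gained the call (adjusted p = 0.0333).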
